A study of Mus musculus with 11 samples.

Results

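The genes described here are 30 mouse genes of the integrated stress response that is run by the transcription factor ATF4, followed through RNA sequencing of the hippocampal cell line HT22 and of a derivative with an inducible Klf9 gene. The genes were taken from a fixed list of symbols, and each was represented by its RefSeq row with the highest mean count. All 30 were found among 24143 genes of the count table, and all 30 were among the 13536 genes that passed the filter on low counts. HT22 is an SV40-immortalized mouse hippocampal line, and HT22[TR/TO-Klf9] is HT22 stably transfected with a tetracycline repressor (pCDNA6:TR) and a Klf9 cassette under repressor control (pCDNA4:TO-Klf9), kept under zeocin and blasticidin. Klf9 is a zinc finger transcription factor, and the study asked which genes respond when doxycycline lifts the repression of its cassette.

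The groups were TR/TO-Klf9 cells given doxycycline, TR/TO-Klf9 cells given DMSO vehicle, parent HT22 cells given doxycycline and parent HT22 cells given DMSO vehicle. Doxycycline was used at 0.5 µg/ml, and both treatments lasted 8 hours. The labels name 11 samples, but the counts of TR/TO-Klf9 doxycycline 1 equalled those of TR/TO-Klf9 vehicle 3 in all 33815 rows. That library therefore carries conflicting labels, and both of its columns were left out of every group. This left 9 libraries: 1 TR/TO-Klf9 doxycycline library (labelled 2), 2 TR/TO-Klf9 vehicle libraries, 3 parent doxycycline libraries and 3 parent vehicle libraries. The labels do not say whether replicates came from separate cultures, so p-values measure the spread between these samples, which may be technical. They also do not say whether the TR/TO-Klf9 line is a single clone, and the 2 lines differ in their transfection, their selection drugs and their passage history as well as in the cassette.

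In this response, kinases that sense amino acid shortage, misfolded protein in the endoplasmic reticulum, double-stranded RNA or heme shortage phosphorylate the translation factor eIF2. General translation then falls, while the mRNA of Atf4 is translated more efficiently, so ATF4 protein can change without a change in Atf4 mRNA. ATF4 pairs with C/EBP family proteins on composite DNA elements and activates genes for amino acid synthesis, amino acid uptake, tRNA charging, feedback on the pathway and, under lasting stress, cell death.

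Short stretches of promoter are shown for 5 members whose level differed between the lines, and for Asns, to show the element by which ATF4 and C/EBP proteins are known to bind. The capitals mark matches to TGATGNAA, the core of the C/EBP-ATF response element, which was searched on both strands of RefSeq promoters (GRCm38.p6, from 250 bases before to 50 bases after each start) and was the only motif searched.
Fgf21: gcctggacggaTGATGCAAtgggggggtct
Nupr1: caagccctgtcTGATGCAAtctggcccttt
Trib3: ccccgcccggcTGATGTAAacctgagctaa
Chac1: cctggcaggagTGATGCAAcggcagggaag
Vldlr: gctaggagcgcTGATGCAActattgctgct
Asns: tcccagccacaTGATGAAActtcccgcacg
These stretches lie at chr7:45615611-45615640 (plus strand), chr7:126625562-126625591 (plus strand), chr2:152344028-152344057 (plus strand), chr2:119351038-119351067 (minus strand), chr19:27216809-27216838 (minus strand, before the second of the gene's RefSeq starts) and chr6:7693214-7693243 (minus strand), in the order of the list. Promoters were matched for 24 of the 30 members, with 28 start sites, and 8 of those 24 genes held the motif, the other two being Aars and Gars. The share of start sites with a match was 28.6% for the members and 3.97% for all 32851 RefSeq promoters. A match describes the letters in the window and is not evidence of binding, and members without a match include Atf5, Cebpb, Ddit4 and Sesn2.

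Library totals over the kept rows ran from 10302431 to 18902784 counts, and the TR/TO-Klf9 doxycycline library held 12383212. Levels are given as CPM, read counts relative to library size, scaled by the TMM method, which sets libraries to a common size. Klf9 was at 101 CPM in the TR/TO-Klf9 doxycycline library and at 48.7 and 44.1 CPM in TR/TO-Klf9 vehicle, against 38.1 to 39.6 CPM in parent doxycycline and 36.1 to 41.4 CPM in parent vehicle, so the induced library matches its label. The left-out library had 45.8 CPM of Klf9. Of 10 neuron markers, 3 passed the filter; the list summed to 12.4 CPM in TR/TO-Klf9 doxycycline, 20.9 and 17.4 CPM in TR/TO-Klf9 vehicle, 32.0 to 38.0 CPM in parent doxycycline and 34.0 to 34.4 CPM in parent vehicle, most of it Tubb3. Rbfox3 and Nefl were at 0 in all 6 parent libraries, while 10 fibroblast markers summed to 3580 to 3730 CPM in TR/TO-Klf9 libraries and 3010 to 3940 CPM in parent libraries. Of those 10, 4 were higher and 3 lower in TR/TO-Klf9 under vehicle, against 18.8% and 20.1% of all tested genes. Among them were Acta2 (1.74 ± 0.06, log2 ± SE) and Pdgfra (-0.96 ± 0.07), while Col1a1 did not pass (0.07 ± 0.11). Dcn, also lower, had the largest difference, at 0 to 0.149 CPM in TR/TO-Klf9 libraries and 13.1 to 15.1 CPM in parent libraries. The 7 astrocyte markers summed to 124 to 170 CPM in TR/TO-Klf9 libraries and 214 to 247 CPM in parent libraries, and the 8 oligodendrocyte and microglia markers to 17.6 to 21.7 CPM in TR/TO-Klf9 libraries and 7.32 to 9.92 CPM in parent libraries. The neuron, astrocyte, and oligodendrocyte and microglia sums thus differed between the lines, while the fibroblast sums overlapped. The neuron sum was also lower with doxycycline than with vehicle in TR/TO-Klf9 cells. The part of these markers in the line differences below was not tested. TR/TO-Klf9 vehicle 1 stood apart in brain-type transcripts, with Slc1a2 at 6.33 CPM and Snap25 at 1.64 CPM against at most 0.467 and 0.198 CPM in the other libraries used. In bulk RNA, fewer cells of a type and less RNA per cell cannot be told apart.

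The members spanned a wide range of expression. Per kilobase of transcript, the mean level over the 9 libraries was highest for Psat1 (177 CPM per kb), an aminotransferase of serine synthesis, and for Gars (166 CPM per kb), the glycyl-tRNA synthetase. Atf4 followed at 151 CPM per kb and Asns, the asparagine synthetase, at 140 CPM per kb. The lowest were Fgf21 (2.36 CPM per kb), Slc7a3 (1.88 CPM per kb) and Gdf15 (0.241 CPM per kb), which therefore carry the widest counting error.

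More members passed between the lines than between the treatments. Under vehicle, 12 members were higher and 5 lower in the TR/TO-Klf9 line relative to its parent by edgeR's quasi-likelihood test at an adjusted p of 0.05, while 18.8% of all tested genes were called higher and 20.1% lower. The median log2 fold change was 0.16 over the members and 0.01 over all tested genes, and the members' median was 0.05 without TR/TO-Klf9 vehicle 1 and 0.09 without parent vehicle 1. The share of members called higher, 12 of 30, lay above that background and the share called lower, 5 of 30, below it. The latter did not hold without parent vehicle 1, where 8 of 30 members and 2590 of 13461 tested genes were called lower. No test was made of the list as a whole. Doxycycline changed 1 member in TR/TO-Klf9 cells and 0 in parent cells. Of all tested genes it changed 6.44% as higher and 11.4% as lower in TR/TO-Klf9 cells, and 0% in parent cells. The same order thus held over all genes, with 5264 calls between the lines and 2410 and 0 with doxycycline.

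**Figure D1:**
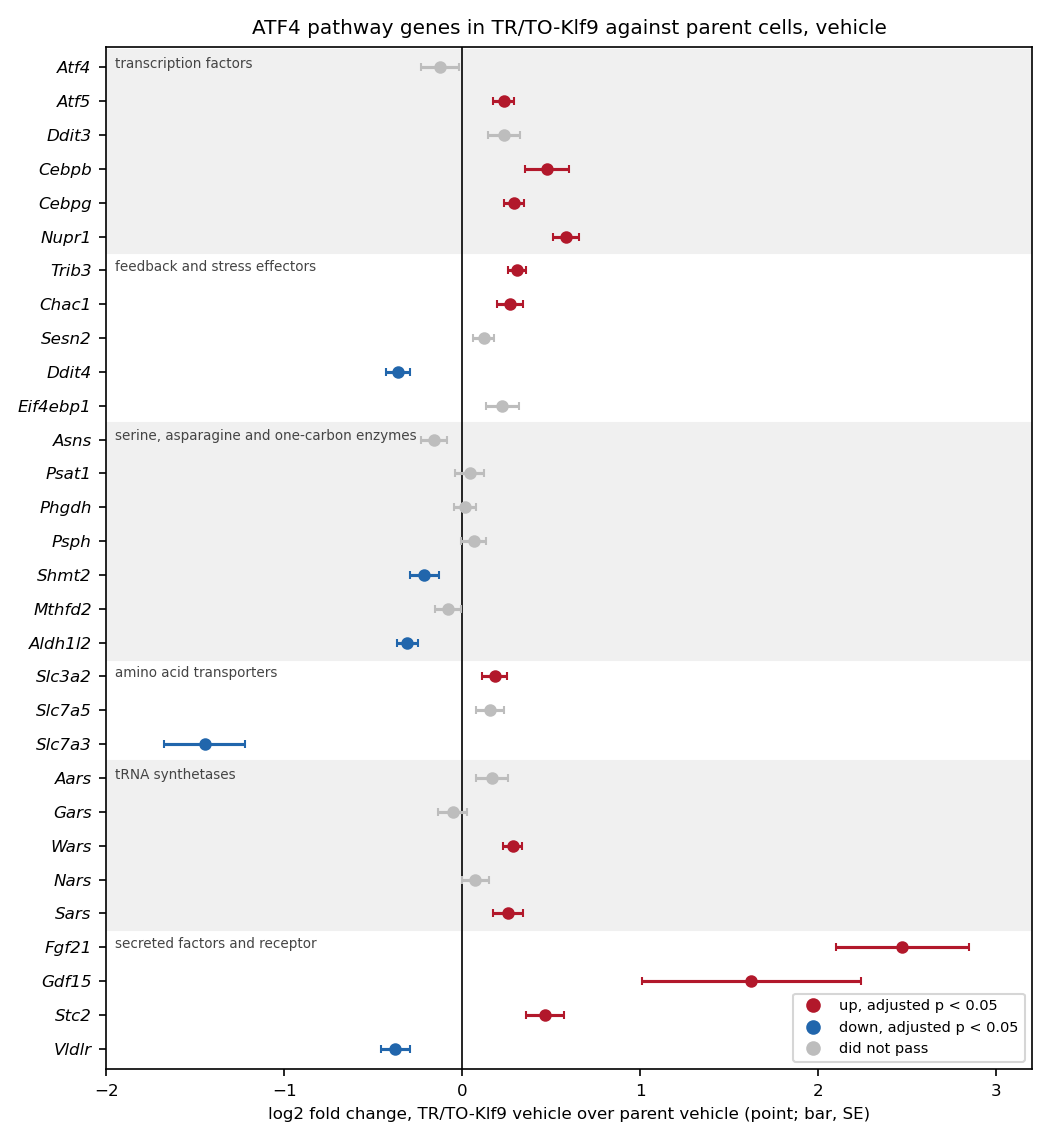
Log2 fold change of the 30 genes, TR/TO-Klf9 vehicle over parent vehicle (x axis; points with SE bars), with genes grouped by role from top to bottom; red points passed as higher, blue points as lower and grey points did not pass. Fgf21 at 2.47 and Slc7a3 at -1.45 lie farthest out, and Atf4 lies at -0.12. In role groups made after the values were seen, 4 of 6 transcription factors and 0 of 7 enzymes were called higher. The share over all tested genes was 18.8%.

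The members were sorted into role groups after their values were seen, so counts by role describe these data and test nothing. Of all tested genes, 18.8% were called higher and 20.1% lower in this comparison. Among the transcription factors, 4 of 6 were higher in TR/TO-Klf9 under vehicle and 0 lower, but Atf4 itself did not pass. Atf4 was at 250 CPM in TR/TO-Klf9 doxycycline, 245 and 230 CPM in TR/TO-Klf9 vehicle, 286, 285 and 276 CPM in parent doxycycline and 215, 300 and 264 CPM in parent vehicle. The TR/TO-Klf9 values lay inside the range of the parent vehicle libraries, and the line difference was -0.12 ± 0.11 (log2 ± SE, adjusted p = 0.38). That result rested on parent vehicle 1, the lowest of the 9 libraries: without it Atf4 passed as lower in TR/TO-Klf9 (-0.25 ± 0.06, adjusted p = 0.00449), and it passed under no other of the 25 alternatives.

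Nupr1, a small stress-induced chromatin protein, was at 53.6 CPM in TR/TO-Klf9 doxycycline, 52.8 and 44.6 CPM in TR/TO-Klf9 vehicle, 33.2, 33.3 and 31.9 CPM in parent doxycycline and 33.0, 32.3 and 32.0 CPM in parent vehicle. Every TR/TO-Klf9 library lay above every parent library, and the line difference under vehicle was 0.58 ± 0.07 (adjusted p = 1.01e-05). Cebpg, a C/EBP protein that pairs with ATF4, was at 191 CPM in TR/TO-Klf9 doxycycline, 203 and 182 CPM in TR/TO-Klf9 vehicle, 168, 169 and 158 CPM in parent doxycycline and 155, 158 and 160 CPM in parent vehicle. Its groups did not overlap between the lines either, and it was higher by 0.29 ± 0.05 (adjusted p = 0.000405).

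Atf5, a close relative of ATF4 that is also controlled at translation, was at 168 CPM in TR/TO-Klf9 doxycycline, 150 and 160 CPM in TR/TO-Klf9 vehicle, 138, 141 and 132 CPM in parent doxycycline and 122, 141 and 134 CPM in parent vehicle. The lines did not overlap, with a difference of 0.23 ± 0.06 (adjusted p = 0.00462). Cebpb, a C/EBP factor of stress and inflammation, was at 31.6 CPM in TR/TO-Klf9 doxycycline, 39.8 and 28.8 CPM in TR/TO-Klf9 vehicle, 26.6, 31.0 and 25.7 CPM in parent doxycycline and 23.2, 24.2 and 26.8 CPM in parent vehicle. Its line difference of 0.48 ± 0.12 (adjusted p = 0.00705) rested on TR/TO-Klf9 vehicle 1, without which the adjusted p was 0.228. The call was also lost with the left-out library as vehicle or under both labels. That library had 22.5 CPM of Cebpb, below all parent vehicle libraries. Ddit3 (CHOP), which drives cell death under lasting stress, had a difference of 0.23 ± 0.09 and did not pass (adjusted p = 0.0506). It passed as higher under 6 of 25 alternatives (adjusted p 2.71e-05 to 0.802 over all 25), and single libraries moved it to 0.41 without TR/TO-Klf9 vehicle 2 (adjusted p = 2.71e-05) and 0.03 without vehicle 1. Reads of Atf5 and Ddit3 may be shared with expressed genes that overlap them (Nup62 and Il4i1b for Atf5, Mars1 and Mbd6 for Ddit3), since no source used here gives the strand setting of the counting.

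The feedback and stress effectors split, with 2 of 5 higher and 1 lower in TR/TO-Klf9 under vehicle. Trib3, a pseudokinase that restrains ATF4 activity, was at 95.8 CPM in TR/TO-Klf9 doxycycline, 89.9 and 88.8 CPM in TR/TO-Klf9 vehicle, 73.3, 72.2 and 74.6 CPM in parent doxycycline and 70.0, 73.4 and 73.6 CPM in parent vehicle. The replicates agreed closely within each group, and Trib3 was higher by 0.31 ± 0.05 (adjusted p = 0.000153). Ddit4 (REDD1), a stress-induced inhibitor of mTORC1, went the other way, at 35.2 CPM in TR/TO-Klf9 doxycycline, 37.8 and 35.1 CPM in TR/TO-Klf9 vehicle, 51.4, 50.3 and 47.7 CPM in parent doxycycline and 47.5, 44.9 and 47.7 CPM in parent vehicle. No TR/TO-Klf9 library reached a parent library, and the difference was -0.36 ± 0.07 (adjusted p = 0.000388).

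Chac1, a glutathione-degrading enzyme, was at 102 CPM in TR/TO-Klf9 doxycycline, 91.5 and 76.5 CPM in TR/TO-Klf9 vehicle, 76.1, 74.4 and 67.2 CPM in parent doxycycline and 69.7, 72.6 and 67.4 CPM in parent vehicle. It was higher by 0.27 ± 0.07 under vehicle (adjusted p = 0.0086), a call that was lost without TR/TO-Klf9 vehicle 1 (adjusted p = 0.121). Sesn2, a leucine sensor that restrains mTORC1, and Eif4ebp1, the translation repressor 4E-BP1, had values of 0.12 ± 0.06 and 0.22 ± 0.09 and did not pass. Without TR/TO-Klf9 vehicle 2 both passed as higher, Sesn2 at 0.17 (adjusted p = 0.0272) and Eif4ebp1 at 0.36 (adjusted p = 0.00264), and Eif4ebp1 also did so without parent vehicle 2 (adjusted p = 0.0415).

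In the enzymes of serine, asparagine and one-carbon metabolism 0 of 7 were higher and 2 were lower in TR/TO-Klf9 under vehicle. Asns was at 272 CPM in TR/TO-Klf9 doxycycline, 261 and 241 CPM in TR/TO-Klf9 vehicle, 314, 300 and 299 CPM in parent doxycycline and 250, 305 and 286 CPM in parent vehicle. Phgdh, which catalyses the entry step of serine synthesis, was at 62.4 CPM in TR/TO-Klf9 doxycycline, 73.1 and 67.4 CPM in TR/TO-Klf9 vehicle, 78.6, 71.1 and 77.0 CPM in parent doxycycline and 72.5, 66.1 and 69.1 CPM in parent vehicle. Both overlapped between the lines under vehicle and did not pass, with differences of -0.16 ± 0.07 for Asns (adjusted p = 0.101) and 0.01 ± 0.06 for Phgdh (adjusted p = 0.876). Asns passed as lower without parent vehicle 1, where its lines no longer overlapped (-0.23 ± 0.05, adjusted p = 0.00299), and with no filter on low counts (adjusted p = 0.0483). Phgdh has a named pseudogene, Phgdh-ps1, with which reads may be shared.

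Aldh1l2, the mitochondrial enzyme that oxidizes formyl-tetrahydrofolate, was at 230 CPM in TR/TO-Klf9 doxycycline, 264 and 251 CPM in TR/TO-Klf9 vehicle, 333, 319 and 317 CPM in parent doxycycline and 311, 316 and 329 CPM in parent vehicle. All TR/TO-Klf9 libraries lay below all parent libraries, and it was lower by 0.31 on the log2 scale under vehicle (-0.31 ± 0.06, adjusted p = 0.000392). Shmt2, the mitochondrial serine hydroxymethyltransferase, passed narrowly at -0.21 ± 0.08 (adjusted p = 0.0459), with overlapping groups, and failed under 13 of 25 alternatives (adjusted p 0.000678 to 0.749 over all 25), among them the removal of TR/TO-Klf9 vehicle 2 (adjusted p = 0.196). The remaining enzymes, Psat1, Psph and Mthfd2, had values between -0.08 and 0.06, and Psph overlaps the expressed gene Cct6a. Mthfd2, of mitochondrial folate metabolism, passed as lower without parent vehicle 1 (-0.16 ± 0.05, adjusted p = 0.0292), so that 4 of the 7 enzymes were lower and 0 higher without that library.

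Of the 3 amino acid transporters, 1 was higher and 1 lower in TR/TO-Klf9 under vehicle. Slc7a3, a transporter of cationic amino acids, was at 2.22 CPM in TR/TO-Klf9 doxycycline, 2.42 and 1.78 CPM in TR/TO-Klf9 vehicle, 5.05, 6.92 and 4.67 CPM in parent doxycycline and 6.44, 5.55 and 4.99 CPM in parent vehicle. The lines did not overlap, and the difference was -1.45 ± 0.23 (adjusted p = 9.31e-05); from the summed counts, 55 in TR/TO-Klf9 vehicle and 242 in parent vehicle, the ratio was 0.362 with a 95% interval of 0.265 to 0.487 that covers counting error only. Slc3a2, the heavy chain shared by several amino acid exchangers, was at 305 CPM in TR/TO-Klf9 doxycycline, 306 and 276 CPM in TR/TO-Klf9 vehicle, 270, 273 and 267 CPM in parent doxycycline and 233, 274 and 264 CPM in parent vehicle. It passed at 0.18 ± 0.07 (adjusted p = 0.0453), with TR/TO-Klf9 vehicle 2 barely above the highest parent library, and failed under 16 of 25 alternatives (adjusted p 0.00428 to 0.319 over all 25), among them the removal of TR/TO-Klf9 vehicle 1 (adjusted p = 0.277). Slc7a5, the light chain LAT1 that pairs with it, had 0.15 ± 0.08 and did not pass except without parent vehicle 2 (adjusted p = 0.0428), and Slc7a3 overlaps the expressed gene Snx12.

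Of the tRNA synthetases, which charge tRNAs with their amino acids, 2 of 5 were higher in TR/TO-Klf9 under vehicle and 0 lower. Wars, for tryptophan, was at 165 CPM in TR/TO-Klf9 doxycycline, 191 and 170 CPM in TR/TO-Klf9 vehicle, 148, 152 and 147 CPM in parent doxycycline and 146, 149 and 150 CPM in parent vehicle. It lay higher in every TR/TO-Klf9 library, by 0.28 ± 0.05 under vehicle (adjusted p = 0.00041), although it overlaps the expressed gene Wdr25. Sars, for serine, was at 322 CPM in TR/TO-Klf9 doxycycline, 351 and 301 CPM in TR/TO-Klf9 vehicle, 296, 288 and 281 CPM in parent doxycycline and 240, 299 and 282 CPM in parent vehicle. Its difference of 0.26 ± 0.08 (adjusted p = 0.0243) was lost without TR/TO-Klf9 vehicle 1 (adjusted p = 0.225) or parent vehicle 1 (adjusted p = 0.057). Aars, Gars and Nars, for alanine, glycine and asparagine, ranged from -0.05 to 0.17 and did not pass, although Aars did as higher without TR/TO-Klf9 vehicle 2 (adjusted p = 0.0377) or parent vehicle 2 (adjusted p = 0.0329).

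All 4 members of the remaining group passed, 3 as higher and 1 as lower, in a group made after the values were seen. Fgf21, a hormone that stressed cells secrete, was at 4.60 CPM in TR/TO-Klf9 doxycycline, 7.42 and 3.49 CPM in TR/TO-Klf9 vehicle, 1.03, 0.638 and 0.265 CPM in parent doxycycline and 1.25, 0.594 and 0.885 CPM in parent vehicle. Each TR/TO-Klf9 library exceeded each parent library, and the difference was 2.47 ± 0.37 (adjusted p = 0.00013), with a ratio of summed counts of 5.51 (95% counting interval 3.87 to 8.01). Gdf15, a stress cytokine, had 22 counts over 2 TR/TO-Klf9 vehicle libraries and 11 over 3 parent vehicle libraries, a ratio of 3.18 (1.48 to 7.27), and its call (adjusted p = 0.0465) failed under 8 of 20 alternatives, among them the removal of any single parent library (adjusted p up to 0.213 over the 20).

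Stc2, a secreted glycoprotein of the stress response, was at 33.9 CPM in TR/TO-Klf9 doxycycline, 24.9 and 33.6 CPM in TR/TO-Klf9 vehicle, 20.7, 19.1 and 20.3 CPM in parent doxycycline and 21.3, 20.1 and 22.1 CPM in parent vehicle. It was higher by 0.46 ± 0.11 (adjusted p = 0.00233), but without TR/TO-Klf9 vehicle 2 the adjusted p was 0.133. Vldlr, a lipoprotein receptor, was at 19.4 CPM in TR/TO-Klf9 doxycycline, 23.1 and 21.5 CPM in TR/TO-Klf9 vehicle, 28.9, 29.4 and 29.1 CPM in parent doxycycline and 30.6, 27.7 and 28.0 CPM in parent vehicle. No TR/TO-Klf9 library reached the parent range, and the difference was -0.38 ± 0.08 (adjusted p = 0.00142).

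**Figure D2:**
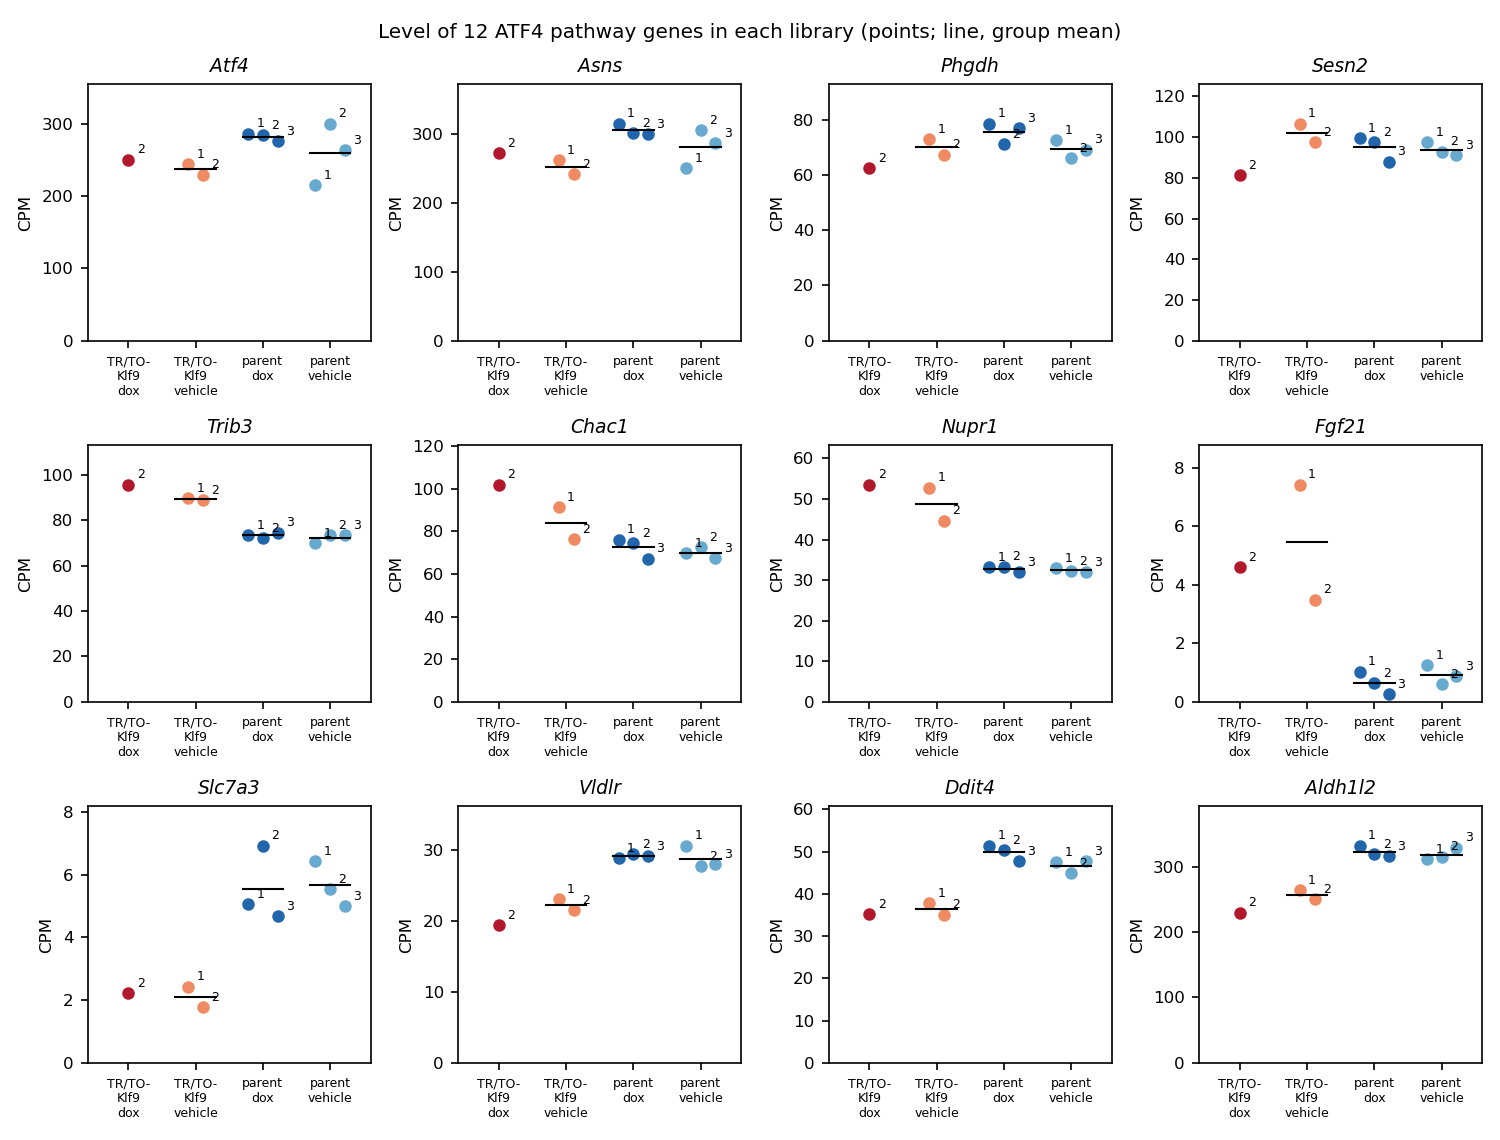
Level in CPM (y axis, from 0) of 12 of the genes in each library, with groups from left to right TR/TO-Klf9 doxycycline (n = 1), TR/TO-Klf9 vehicle (n = 2), parent doxycycline (n = 3) and parent vehicle (n = 3); points are libraries with their replicate number and lines are group means. Trib3 and Nupr1 lie higher, and Slc7a3, Vldlr, Ddit4 and Aldh1l2 lower, in all 3 TR/TO-Klf9 libraries than in all 6 parent libraries, while Atf4 spans 215 to 300 CPM in parent vehicle alone.

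Of the 17 line calls, 9 stood under every one of 25 alternatives: Fgf21, Nupr1, Trib3, Cebpg and Wars as higher and Slc7a3, Vldlr, Ddit4 and Aldh1l2 as lower. The count itself moved with single libraries, to 9 higher and 8 lower without parent vehicle 1. In that fit 2360 of 13461 tested genes were called higher and 2590 lower, so both member shares then lay above the background. Without TR/TO-Klf9 vehicle 1 the members' median log2 fold change was 0.05, against 0.16 with it. Of the 30 members, 14 lay higher in both TR/TO-Klf9 vehicle libraries than in all parent vehicle libraries and 4 lay lower, against 27.9% and 27.3% of all tested genes.

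Doxycycline changed 1 member in TR/TO-Klf9 cells: Sesn2 fell, and 0 members rose. The comparison asks whether these genes respond while Klf9 is induced, and it called 6.44% of all tested genes as higher (872) and 11.4% as lower (1538), a split that became 749 higher and 666 lower once a trend with transcript length was removed. Sesn2 was at 81.3 CPM in TR/TO-Klf9 doxycycline, 107 and 97.6 CPM in TR/TO-Klf9 vehicle, 99.3, 97.7 and 87.9 CPM in parent doxycycline and 97.4, 92.8 and 91.2 CPM in parent vehicle. The doxycycline library was the lowest of the 9, and the change was -0.33 ± 0.08 (adjusted p = 0.0132), or -0.27 ± 0.08 (adjusted p = 0.0459) after removal of the length trend. The left-out library had 93.3 CPM of Sesn2, and with it counted as doxycycline the adjusted p was 0.248. Klf9 was not called in that fit either, at 45.8 CPM in the left-out library against 48.7 and 44.1 CPM in TR/TO-Klf9 vehicle. Such a fit therefore cannot decide whether the doxycycline calls hold. In that fit 0 genes of the whole table passed in this comparison, so no doxycycline call in TR/TO-Klf9 cells given here stood under it, whereas counting it as vehicle left Sesn2 called (adjusted p = 0.0308).

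The other 29 members did not pass, and the median over all 30 was -0.01, the same as over all tested genes to 2 decimals; 13 members had positive and 17 negative values. Atf4 had 0.08 ± 0.14 (adjusted p = 0.749), Asns 0.11 ± 0.10 (adjusted p = 0.453) and Phgdh -0.17 ± 0.09 (adjusted p = 0.186). Nearest to the threshold was Chac1, at 0.28 ± 0.09 (adjusted p = 0.051), which was highest in the doxycycline library and passed under 11 of 24 alternatives, including that without TR/TO-Klf9 vehicle 1 (0.41 ± 0.08, adjusted p = 0.000555) but not that without vehicle 2 (0.17 ± 0.08, adjusted p = 0.0874). With 1 doxycycline library its spread was assumed to equal that of the other groups, and 9 members lay higher and 9 lower in it than in both vehicle libraries, against 36.6% and 38.6% of all tested genes.

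**Figure D3:**
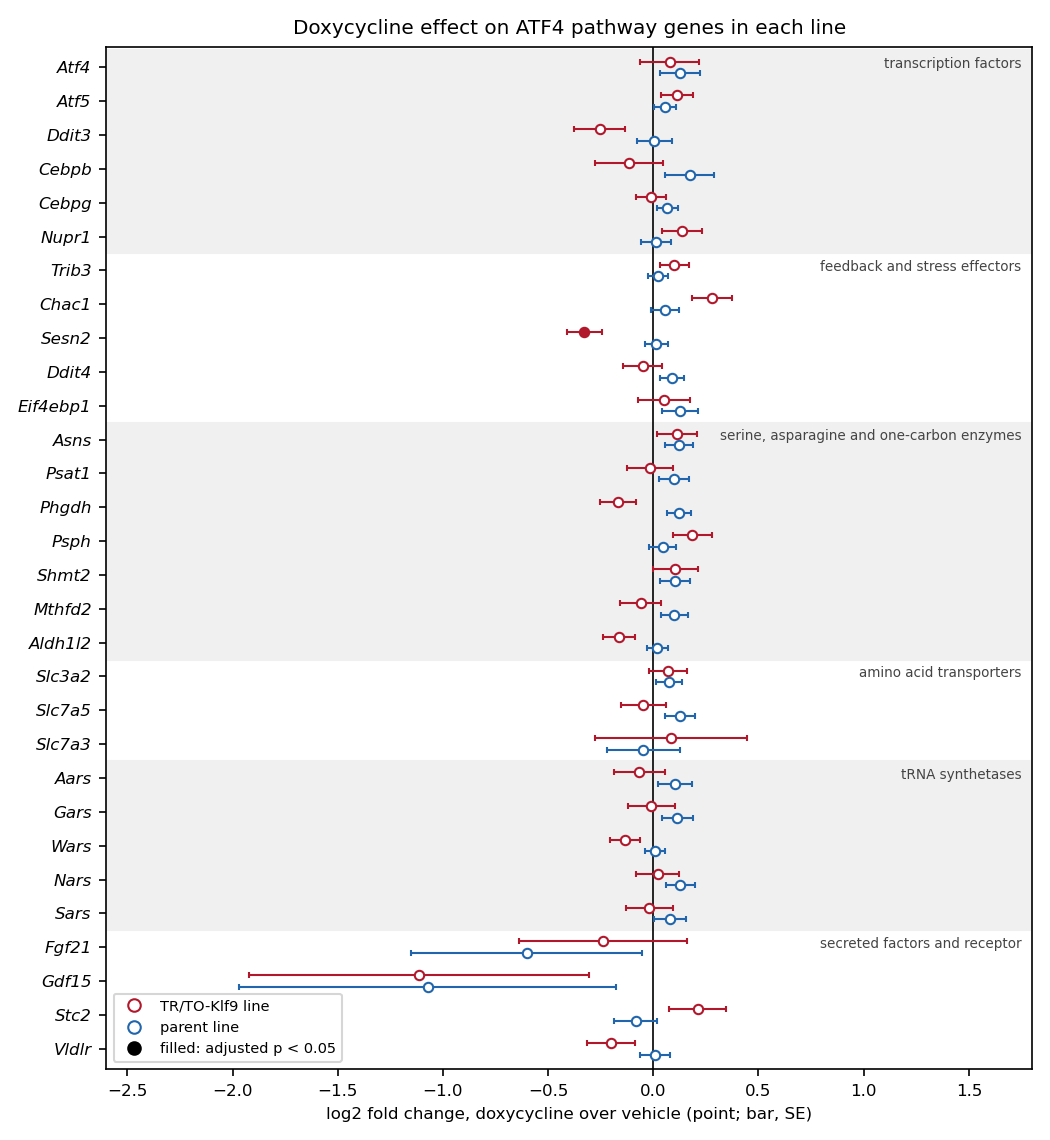
Log2 fold change of the 30 genes, doxycycline over vehicle (x axis; points with SE bars), in TR/TO-Klf9 cells (red, upper point of each gene) and in parent cells (blue, lower point), grouped by role; filled points passed. Sesn2 in TR/TO-Klf9 cells, at -0.33, is the only filled point, and Gdf15 and Fgf21 have the widest bars.

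In parent cells, which lack the cassette, doxycycline changed 0 members by edgeR, DESeq2 or limma-voom, and 0% of all tested genes were called in either direction (0% higher and 0% lower). At an unadjusted p of 0.05 edgeR singled out 293 of all tested genes and 1 member, Phgdh (0.12 ± 0.06, unadjusted p = 0.0494). The values were mostly positive, in 26 of 30 members against 47.7% of all tested genes, with a median of 0.07 against -0.0038 over all. All 6 transcription factors, all 7 enzymes and all 5 synthetases had positive values, of 0.17 at most, while Fgf21, Gdf15, Stc2 and Slc7a3 had negative ones. Nars was the only member whose groups did not overlap. It was at 348, 342 and 339 CPM in parent doxycycline and 285, 336 and 322 CPM in parent vehicle. Of all tested genes, 3.92% lay higher and 5.8% lower in all parent doxycycline libraries than in all parent vehicle libraries. Without parent vehicle 1, 22 of 30 members were positive and the median was 0.03.

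Between the lines the doxycycline effect differed for 1 member, Sesn2, whose effect was lower in TR/TO-Klf9 by 0.34 on the log2 scale (-0.34 ± 0.10, adjusted p = 0.0403). This test of the difference called 2.75% of all tested genes as higher and 6.92% as lower, and the call for Sesn2 was lost under 13 of 24 alternatives (adjusted p 0.00426 to 0.777 over all 24), DESeq2 and removal of the length trend among them. It was also lost without parent vehicle 2 (adjusted p = 0.0867), parent vehicle 3 (0.118), parent doxycycline 1 (0.131) or parent doxycycline 2 (0.125). For Phgdh the difference was -0.29 ± 0.10 and did not pass (adjusted p = 0.0864). Both effects use their own line's vehicle libraries, and the effect in TR/TO-Klf9 cells shares its vehicle libraries with the comparison of the lines.

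Replicates within a group differed across these genes together. Of the 27 members averaging at least 8 CPM, 24 were higher in replicate 1 of TR/TO-Klf9 vehicle than in replicate 2, with a median log2 ratio of 0.14, while 46.2% of all genes at that level were higher. The exceptions were Atf5, Slc7a5 and Stc2. Parent vehicle 1, the deepest library, was lower than the mean of parent vehicle 2 and 3 for 20 of 27 members (median -0.17), against 42.4% of all genes. The TR/TO-Klf9 doxycycline library was lower than vehicle 1 for 18 of the 27 and higher than vehicle 2 for 19, so its place depended on which vehicle library it was set against. TR/TO-Klf9 vehicle 1 is also the library with the brain-type transcripts named above, and their part in these values was not tested.

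**Figure D4:**
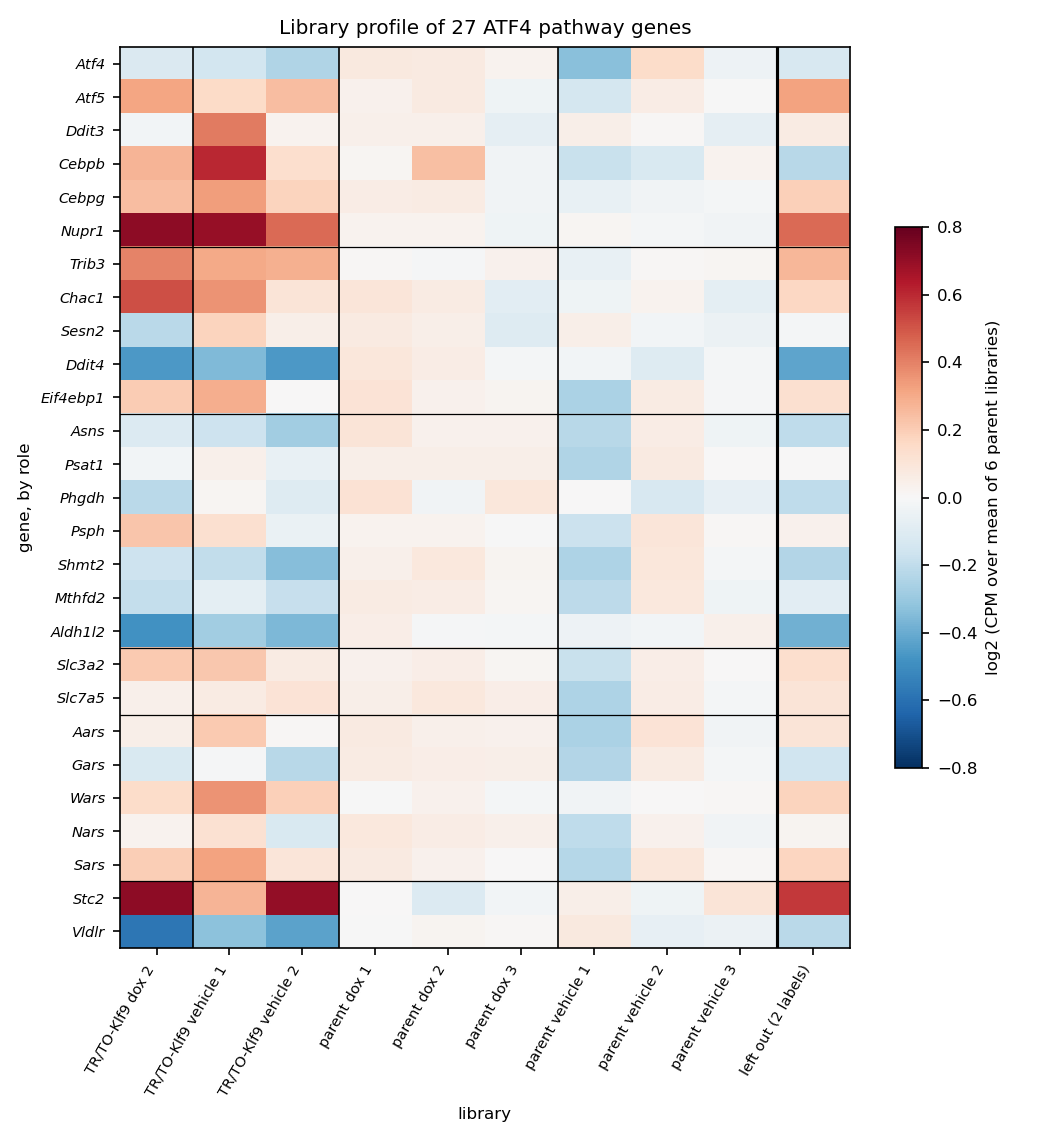
Log2 ratio of each gene's CPM to its mean over the 6 parent libraries (colour scale), for the 27 genes averaging at least 8 CPM (rows, by role) in each library (columns), with the left-out library in the last column. The 3 TR/TO-Klf9 libraries share high Nupr1, Trib3 and Cebpg and low Ddit4, Aldh1l2 and Vldlr, and parent vehicle 1 is blue for Atf4, Psat1 and most synthetases.

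Upstream of ATF4, the eIF2 kinases and the phosphatase that reverses them showed 0 rises and 3 falls with doxycycline in TR/TO-Klf9 cells among 11 tested genes. Of all tested genes, that comparison called 6.44% higher and 11.4% lower. With only the groups compared, no doxycycline call in TR/TO-Klf9 cells named from the lists here or below was kept. Ppp1cc, a catalytic subunit of protein phosphatase 1, was at 25.2 CPM in TR/TO-Klf9 doxycycline and 38.8 and 40.6 CPM in TR/TO-Klf9 vehicle, a fall that held with the length trend removed (-0.66 ± 0.12, adjusted p = 0.0013, and 0.00253 with the trend removed). Gcn1, the activator of the amino acid sensing kinase GCN2, fell by 0.45 (adjusted p = 0.00267) and Eif2ak2 (PKR) by 0.28 (adjusted p = 0.0298), but neither passed with the length trend removed (adjusted p = 0.282 and 0.217). Transcript length moved with this comparison, with median log2 changes of 0.11 in the shortest of 4 length classes of genes and -0.17 in the longest. Under vehicle, 1 of these genes was higher and 1 lower in the TR/TO-Klf9 line, against 18.8% and 20.1% of all tested genes. The higher one was Ppp1r15a (GADD34), the stress-induced subunit that directs the phosphatase to eIF2, at 46.8 CPM in TR/TO-Klf9 doxycycline, 95.8 and 46.2 CPM in TR/TO-Klf9 vehicle, 28.0, 31.4 and 28.9 CPM in parent doxycycline and 29.8, 28.8 and 30.6 CPM in parent vehicle. Its line difference was 1.25 ± 0.31 (adjusted p = 0.0261), or 0.64 without TR/TO-Klf9 vehicle 1 (adjusted p = 1.74e-06) and 1.68 without vehicle 2. The call was lost under 5 of 25 alternatives (adjusted p 1.43e-14 to 0.0925 over all 25), among them the removal of parent vehicle 1 (0.0743), 2 (0.0718) or 3 (0.0709) or of parent doxycycline 2. The lower one, Eif2ak4 (GCN2), had -0.27 ± 0.08 and did not pass without TR/TO-Klf9 vehicle 1 (adjusted p = 0.1).

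Of 10 genes for eIF2 and its exchange factor eIF2B, 3 rose and 0 fell with doxycycline in TR/TO-Klf9 cells. All 3 were eIF2B subunits, and the shares over all tested genes were 6.44% higher and 11.4% lower. Eif2b1 was at 111 CPM in TR/TO-Klf9 doxycycline and 88.3 and 88.3 CPM in TR/TO-Klf9 vehicle (0.33 ± 0.08, adjusted p = 0.0101). Eif2b3 was at 105 CPM in TR/TO-Klf9 doxycycline and 81.4 and 87.2 CPM in TR/TO-Klf9 vehicle (0.32 ± 0.07, adjusted p = 0.00658), and Eif2b4 had 0.29 ± 0.09 (adjusted p = 0.035, or 0.0686 without TR/TO-Klf9 vehicle 2). In parent cells doxycycline changed 0 of the 10, and for Eif2b1 and Eif2b3 the difference between the lines' effects also passed (adjusted p = 0.0308 and 0.024), though not after removal of the length trend, nor without parent vehicle 3 or any of the 3 parent doxycycline libraries (adjusted p up to 0.0686 for Eif2b1 and 0.0572 for Eif2b3).

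Among bZIP partners and regulators of ATF4, 1 rose and 3 fell of 15 tested with doxycycline in TR/TO-Klf9 cells. The shares over all tested genes were 6.44% higher and 11.4% lower. Mafg, a small Maf protein that pairs with NRF factors, was at 84.9 CPM in TR/TO-Klf9 doxycycline and 170 and 129 CPM in TR/TO-Klf9 vehicle (-0.82 ± 0.12, adjusted p = 0.00111). Cebpd, a C/EBP factor, was at 23.8 CPM in TR/TO-Klf9 doxycycline and 15.7 and 18.1 CPM in TR/TO-Klf9 vehicle (0.50 ± 0.13, adjusted p = 0.0173), and Nfe2l1, which drives proteasome genes, fell by 0.46 (adjusted p = 0.0017). All 3 doxycycline calls stood with the length trend removed as well, but none of them stood with only the groups compared. Cebpd was also not called by DESeq2. Between the lines under vehicle 4 of the 15 were higher and 2 lower, against 18.8% and 20.1% of all tested genes. The smallest adjusted p were for Atf6, a sensor of endoplasmic reticulum stress (0.49 ± 0.05, adjusted p = 1.65e-06), Jund (0.38 ± 0.05) and Jun (-0.32 ± 0.06), both AP-1 proteins.

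Other known stress targets counted 1 rise and 3 falls of 17 with doxycycline in TR/TO-Klf9 cells, against 6.44% and 11.4% of all tested genes. Ern1 (IRE1), the sensor that splices Xbp1 mRNA, was at 38.1 CPM in TR/TO-Klf9 doxycycline and 66.7 and 61.4 CPM in TR/TO-Klf9 vehicle (-0.75 ± 0.09, adjusted p = 5.43e-05). The death receptor Tnfrsf10b fell by 0.45 (adjusted p = 0.00463), and the mitochondrial protease subunit Clpp rose by 0.30 (adjusted p = 0.0172) but did not pass after removal of the length trend (adjusted p = 0.0666). Between the lines under vehicle 5 of the 17 were higher and 0 lower, against 18.8% and 20.1% of all tested genes. The smallest adjusted p were for Cdsn (1.31 ± 0.07), which encodes a skin adhesion protein, Ero1a, an oxidase of the endoplasmic reticulum (0.41 ± 0.05), and the bZIP repressor Jdp2 (0.28 ± 0.05).

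Other lists around the pathway held few doxycycline calls in TR/TO-Klf9 cells, where 6.44% of all tested genes were called higher and 11.4% lower. Of 19 other cytosolic synthetases and their partners 3 rose and 0 fell, namely Qars (0.26 ± 0.06), Farsb (0.30 ± 0.07) and Hars (0.21 ± 0.07), the last not with the length trend removed (adjusted p = 0.116), nor without parent vehicle 3 (0.0536) or any parent doxycycline library. Of 14 other amino acid transporters 1 fell, the glycine transporter Slc6a9 (-0.38 ± 0.10; adjusted p = 0.0506 without parent vehicle 1 and 0.0505 without parent vehicle 2), and of 13 mTORC1 regulators 3 fell. Tsc1, a subunit of the inhibitory TSC complex, passed with the length trend removed too (-0.59 ± 0.08 and -0.34), while Rptor and Mtor, parts of mTORC1 itself, did not (adjusted p = 0.0641 and 0.694).

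Between the lines under vehicle the transporters, enzymes and synthetases outside the 30 genes were mixed. Of all tested genes, 18.8% were called higher and 20.1% lower in this comparison. The transporters counted 3 higher and 6 lower of 14, of which the 3 with the smallest adjusted p were the lysosomal or endosomal Slc36a4 (-0.98 ± 0.13), Slc1a4 (0.40 ± 0.06) and Slc38a1 (-0.34 ± 0.05). Other serine, one-carbon and amino acid enzymes counted 3 higher and 3 lower of 16, those with the smallest adjusted p being Cth, the last enzyme of transsulfuration (0.51 ± 0.06), Mthfd1l (-0.29 ± 0.05) and Gcat (-0.27 ± 0.06). The synthetases counted 1 higher and 3 lower of 19, those with the smallest adjusted p being Farsa (-0.29 ± 0.05), Mars1 (-0.29 ± 0.05) and Dars (0.24 ± 0.05), and the mTORC1 regulators 0 higher and 5 lower of 13, among them Mtor (-0.30 ± 0.07). In parent cells doxycycline changed 0 genes of any of these lists.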

How the data were processed

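RNA of 4 groups was sequenced from oligo-dT-primed libraries. The authors deposited raw read counts (whole numbers) in 11 columns, with a RefSeq transcript per row. The submitters' processing notes name build mm8 and the tools Bowtie, CASAVA, FastQC and DESeq; no source used here gives versions, the counting program, the annotation release or the strand setting. Because of oligo-dT priming, RNA quality could shift counts of long transcripts.

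RefSeq accessions were paired with symbols through a GRCm38.p6 gene table (32500 of 32923 matched; the 423 unmatched held up to 1.23% of gene counts per library and were kept under their own name). The row with the highest mean was kept per gene; 4 members had rows that differed. Counts were filtered with filterByExpr, TMM-scaled and tested in R 4.3.3 with edgeR 4.0.16 (robust glmQLFit, 4 group means, 9 libraries, 5 residual degrees of freedom), with Benjamini-Hochberg adjustment over 13536 genes and a threshold of 0.05. Standard errors (SE) were taken as log2 fold change divided by the root of F. The common dispersion, 0.00229, gives a coefficient of variation of 4.78%.

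Alternatives were RLE scaling, limma-voom 3.58.1, DESeq2 1.42.0, other filters, replicate blocks, only the groups compared, summed rows, removal of a length trend (GENCODE M21 lengths for 97.9% of tested genes; loess span 0.4), other treatments of the identical library, and each library left out. Combinations of the length trend with a changed library were added after seeing the data. The fitting code was tested on simulated data. Members and lists were chosen with earlier results of these data known. Values in every library are given for Atf4, Asns and Phgdh and the 16 called members with the smallest adjusted p, and up to 3 called genes per list and comparison are named. Some genes that met this rule are omitted, and their results are not reported here. Role groups were made after values were seen. Motifs were searched and figures drawn with Python 3.11.15, pandas 2.3.3, numpy 2.4.6 and matplotlib 3.10.9.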

Additional observations from a re-analysis of the deposited data

Results flagged for a closer look

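For 14 genes reported here the doxycycline effect in TR/TO-Klf9 cells differed from that in parent cells by the test of the difference itself in edgeR. The only one among the 30 ATF4 genes was Sesn2, a restraint on mTORC1, at -0.34 (log2, effect in TR/TO-Klf9 minus effect in parent). The difference was negative for another 9 of these genes: Mafg (-0.86) and Nfe2l1 (-0.54) of the bZIP list, Ppp1cc (-0.64) and Gcn1 (-0.47) of the eIF2 kinase and phosphatase list, Tsc1 (-0.54) and Rptor (-0.48) of the mTORC1 list, and Ern1 (-0.60), Tnfrsf10b (-0.41) and Ero1a (-0.29) of the stress targets. It was positive for Cebpd (0.73), Eif2b1 (0.35), Eif2b3 (0.33) and Qars (0.26). The same test called 2.75% of all tested genes as higher and 6.92% as lower. Its calls were thus more often negative over all genes too. With the length trend removed 10 of the 14 differences did not pass, and Mafg, Ppp1cc, Ern1 and Cebpd did. Sesn2, Eif2b1, Eif2b3, Qars, Ero1a and Tnfrsf10b also failed without parent vehicle 3, parent doxycycline 1 or parent doxycycline 2, while the other 8 passed without any one library that could be left out. The TR/TO-Klf9 side of each value rests on 1 doxycycline library. What sets these differences was not tested.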

How the results depend on the processing

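In TR/TO-Klf9 cells the count of members changed by doxycycline, 1 as reported, was 2 with RLE scaling, limma-voom, no filter, a filter of 1 CPM in 5 libraries, or the identical library as vehicle, and 0 with only the groups compared or with that library as doxycycline or under both labels. Leaving out single libraries gave 1 to 4. Removing the length trend gave 0 with the identical library as vehicle and 5 without TR/TO-Klf9 vehicle 2. For the difference of effects, 1 as reported, it was 0 with DESeq2, the length trend removed, summed rows or any use of the identical library; single libraries left out gave 0 to 6. Removing the length trend gave 0 with the identical library as vehicle, 0 without TR/TO-Klf9 vehicle 1 and 5 without vehicle 2. The cause was not tested. The fit of the TR/TO-Klf9 groups alone called 73 of all genes, against 2410, and with the identical library as doxycycline 0 were called. The line count stayed between 12 and 20 members and the parent count at 0 under every alternative run. The change of Mtor turned to 0.10 with the length trend removed and without TR/TO-Klf9 vehicle 2.

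Replicate numbers did not pair the samples (correlations of same-numbered deviations -0.006 to 0.049). A block on replicate number over both lines together called 2 members for doxycycline in TR/TO-Klf9 cells and 0 for the difference; a block within each line called 4 and 2. Leaving out the TR/TO-Klf9 doxycycline library gave no doxycycline value for that line. At under 8 CPM, Fgf21, Gdf15 and Slc7a3 are limited by depth.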
